A study of Drosophila melanogaster with 2 samples.

Results

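The sites described here are ChIP-seq summits that lay at the shared start of oppositely transcribed protein-coding genes. A peak was counted when its summit lay within 500 bp of annotated transcription start sites (TSSs) of at least 2 different protein-coding genes on opposite strands. Of 3531 summits on the arms 2L, 2R, 3L, 3R, 4 and X in the authors' conservative list, 496 met this rule (14.0%, 95% exact interval 12.9 to 15.2). They are called divergent promoter summits, and they were set beside 1154 summits within 500 bp of the TSSs of 1 protein-coding gene only, called one-gene promoter summits, and 1853 summits with no protein-coding TSS within 500 bp. A further 28 summits lay near genes on the same strand.

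The samples came from whole Drosophila melanogaster embryos aged 0 to 24 hours of the strain CG32767-GFP, a transgenic line that makes the protein CG32767 joined to eGFP, and chromatin was recovered with anti-GFP antibody. There were 2 biological replicates, with sex not collected, and all cell types of the embryo were pooled. The group had no comparison group and no control library was analysed here, so every comparison below is between kinds of sequence within the same libraries. The deposited peak lists hold no read counts and the depth is unknown. The intervals cover counting error alone, and regions or genes are not replicates of a condition, so no p-value is given.

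Genes of the compact fly genome often lie head to head, with a short stretch between a pair of TSSs from which transcription runs outward in both directions. Such promoters are common among genes used in most cells, and in flies they are known as frequent binding sites of the insulator protein BEAF-32, which recognises CGATA, and of DREF, the factor of the DNA replication-related element (DRE). The sequences of strong sites come first, and their genes and signals follow.

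The stretch between the TSSs is shown for the 5 strongest summits among the 138 that lay inside an exon-free stretch of at most 300 bp on the arms from which sequence is printed. Each is the plus strand of dm6 (RefSeq assembly), 5′ to 3′, from the base after the minus-strand gene's TSS to the base before the plus-strand gene's TSS. Capitals mark stretches of at least 6 letters that hold only A and T, shown because words of A and T were those that most set the summits apart from their flanks.
Art3/mRpS10 (chr3R:15229409-15229664): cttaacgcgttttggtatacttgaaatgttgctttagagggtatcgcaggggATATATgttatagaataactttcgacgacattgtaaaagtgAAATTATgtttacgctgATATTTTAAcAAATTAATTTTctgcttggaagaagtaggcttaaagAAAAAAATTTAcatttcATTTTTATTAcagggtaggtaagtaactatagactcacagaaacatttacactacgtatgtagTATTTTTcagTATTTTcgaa
Tcs5/CHMP2B (chr3L:5139396-5139618): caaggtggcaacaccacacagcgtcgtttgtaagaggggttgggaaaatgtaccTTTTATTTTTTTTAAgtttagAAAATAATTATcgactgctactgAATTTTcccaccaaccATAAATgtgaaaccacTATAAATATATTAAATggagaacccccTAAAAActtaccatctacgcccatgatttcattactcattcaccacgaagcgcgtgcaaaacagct
CG7601/CIA30 (chr3R:29736746-29736964): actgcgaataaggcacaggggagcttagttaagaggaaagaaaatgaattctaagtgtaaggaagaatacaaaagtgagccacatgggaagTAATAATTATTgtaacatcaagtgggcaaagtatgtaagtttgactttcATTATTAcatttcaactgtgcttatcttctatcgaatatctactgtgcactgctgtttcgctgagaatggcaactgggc
CG13390/CG17294 (chr2L:8376798-8377034): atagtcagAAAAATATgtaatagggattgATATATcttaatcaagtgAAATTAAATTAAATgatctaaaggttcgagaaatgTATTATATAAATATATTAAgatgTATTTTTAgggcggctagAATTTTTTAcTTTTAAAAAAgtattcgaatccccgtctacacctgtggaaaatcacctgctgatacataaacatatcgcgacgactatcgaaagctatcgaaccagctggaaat
Mkk4/SLIRP2 (chr3R:8650797-8651083): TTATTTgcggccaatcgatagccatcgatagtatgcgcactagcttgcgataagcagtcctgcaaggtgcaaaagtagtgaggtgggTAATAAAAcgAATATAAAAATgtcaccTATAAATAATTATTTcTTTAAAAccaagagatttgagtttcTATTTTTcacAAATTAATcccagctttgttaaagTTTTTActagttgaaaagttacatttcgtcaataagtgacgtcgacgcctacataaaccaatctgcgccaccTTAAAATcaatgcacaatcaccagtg

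The summit fell on base 131 of the 256 bp between Art3 and mRpS10, on base 108 of the 223 bp between Tcs5 and CHMP2B, and on base 77 of the 219 bp between CG7601 and CIA30. It fell on base 90 of the 237 bp between CG13390 and CG17294, and on base 169 of the 287 bp between Mkk4 and SLIRP2. Lying inside the stretch was a condition of the choice, and the summit was at least 77 bases from the left end of each. These stretches were 69.9%, 61.9%, 62.1%, 69.2% and 63.8% A and T in the order printed, and the longest run of A and T letters was 11, 16, 11, 19 and 15 bases.

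Signals are those the authors deposited, in units set by their caller, and they rank peaks within 1 list. A summit's value in replicate 1 or 2 is the highest signal among candidates overlapping its peak in the ranked list of that library alone. The replicates' values come from separate lists of unknown depth, so a higher value in either is not by itself stronger binding. The strongest divergent promoter summit had a signal of 972.7 and lay between MrgBP, which encodes a subunit of a histone acetyltransferase complex, and Ggamma1, which encodes a G protein gamma subunit (2R, 8901153 to 8901676). Its signal was 416.4 in replicate 1 and 552.7 in replicate 2. The next, at 959.6, lay between Art3, an arginine methyltransferase gene, and mRpS10, a mitochondrial ribosomal protein gene (3R, 15229377 to 15229698). Replicate 1 gave 569.7 there and replicate 2 gave 381.3. The summit at Chro and Ssl1 had 913.1 (3L, 22878752 to 22879064), and its values were 577.5 for replicate 1 and 336.5 for replicate 2. Chro encodes the chromatin protein Chromator and Ssl1 a subunit of the general transcription factor TFIIH.

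The summit at mRpS23 and CenG1A had a signal of 867.0 (2L, 13835314 to 13835617), and replicate 1 gave 486.7 where replicate 2 gave 381.1. That at CG5611 and Mtl had 859.9 (3R, 27636010 to 27636305), with 519.4 and 315.2 in replicates 1 and 2. That at Tcs5, which encodes a kinase of tRNA modification, and CHMP2B, which encodes an ESCRT-III subunit, had 826.2 (3L, 5139343 to 5139648), with 483.0 and 346.6 in replicates 1 and 2. All of the 20 strongest summits were called in both replicates' own lists. Fbw5 and CG9147 shared a summit of 725.6 (2L), CG7601 and the complex I assembly gene CIA30 one of 683.0 (3R), and the peroxisome gene Pex11ab and CG8320 one of 675.6 (2R). The mitochondrial ribosomal protein gene mRpL23 and CG9004 shared a summit of 666.3 (3L, 2373470 to 2373735). In replicates 1 and 2 the signals of these 4 were 399.3 and 328.1 at Fbw5, 431.3 and 246.6 at CIA30, 460.3 and 216.9 at Pex11ab, and 442.5 and 228.4 at mRpL23, so replicate 1 was higher at each. The other summits among the 20 strongest had signals from 538.2 to 664.8 and lay at CG13390 and CG17294, srw and CG1316, tank and CG12194, Mkk4 and SLIRP2, CG1275 and Elp5, CG13933 and PolD2, Lon and PIG-F, qkr58E-3 and PolE4, Wdr37 and koko, and brm and Arl1. Mkk4 encodes a kinase of the JNK pathway, Elp5 an Elongator subunit, PolD2 and PolE4 subunits of DNA polymerases, Lon a mitochondrial protease, brm the ATPase of the Brahma remodelling complex and Arl1 a Golgi GTPase. Replicate 1 had the higher signal at 17 of these 20, and the exceptions were MrgBP and Ggamma1, srw and CG1316, and qkr58E-3 and PolE4.

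Divergent promoter sequence held more summits per base than other sequence. Bases within 500 bp of opposing protein-coding TSSs made up 1674757 bp, 1.25% of the 6 arms, and one-gene promoter sequence 13348409 bp, 9.97%. One-gene promoter sequence includes the outer sides of head-to-head pairs, where the TSS of only 1 gene is within 500 bp. The density was 296.2 divergent promoter summits per Mb (95% exact Poisson interval 270.7 to 323.4), against 86.5 one-gene promoter summits per Mb (81.5 to 91.6) and 15.6 summits per Mb of sequence without a protein-coding TSS (14.9 to 16.4). The ratio of divergent over one-gene promoter density was 3.43 (3.08 to 3.81). It was 4.10 (3.66 to 4.60) in the list of replicate 1, which placed 457 of 2875 summits at divergent promoters, and 2.76 (2.43 to 3.12) in that of replicate 2, which placed 342 of 2624 there. The density at promoters of genes on the same strand was 90.3 per Mb (60.04 to 130.6), and its interval contained the one-gene promoter density. The ratio of divergent over one-gene promoter density varied with the distance limit, being 5.02 at 250 bp and 2.68 at 1000 bp. It is thus not a comparison with promoters of lone genes only, and the part of the outer sides in it was not tested.

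**Figure D1:**
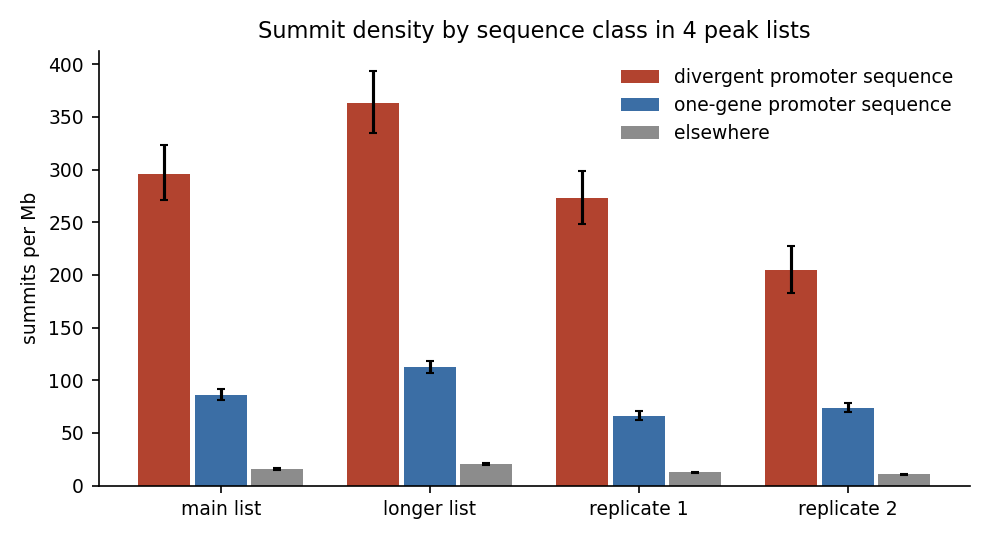
Summits per Mb (y axis) in divergent promoter sequence, one-gene promoter sequence and the rest of the 6 arms, in the main list, the longer series-level list and the lists of replicates 1 and 2. Bars are densities and whiskers 95% exact Poisson intervals, and in each list the divergent bar is the tallest, from 204.2 per Mb in replicate 2 to 363.0 per Mb in the longer list.

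Along the arms, divergent promoters of 3L had 336.3 summits per Mb (275.3 to 406.7), of 3R 319.3 (267.4 to 378.4), of 2L 313.1 (256.1 to 379.0) and of 2R 298.6 (243.5 to 362.5). Those of X had 193.6 (143.7 to 255.2), and the intervals of 2L, 3L and 3R lay above it. One-gene promoter density on X, 83.4 per Mb (71.98 to 96.0), lay within the range of 82.5 to 92.8 per Mb on these 4 autosome arms. On arm 4 there were 0 divergent promoter summits in 7729 bp, which allows up to 477.3 per Mb.

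A difference in the same direction appeared when genes were counted. A divergent promoter summit counts for the genes on both strands, which raises the share of genes with an opposite-strand neighbour by construction. The gene shares are therefore not separate evidence beside the densities. Of 13945 protein-coding genes, a promoter summit was found at 1965 (14.1%) and 947 had a divergent promoter summit (6.79%). Among 5141 genes with an opposite-strand neighbour TSS within 1000 bp, 1196 had a promoter summit (23.3%, 22.1 to 24.4), against 699 of 7960 genes with no other protein-coding TSS within 1000 bp (8.78%, 8.17 to 9.42). In the list of replicate 1 the shares were 21.05% and 6.81%, and in that of replicate 2 they were 16.6% and 7.10%, each time with the genes with an opposite-strand neighbour first. Counted as pairs, 502 of 2720 opposite-strand gene pairs with TSSs within 1000 bp shared a summit (18.5%).

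Most summits lay between the TSSs. The nearest opposing TSSs were head to head at 482 of 496 summits (97.2%, 95.3 to 98.4), and 357 summits (71.98%, 67.8 to 75.9) lay in the interval between them. A further 62 lay to the side of the minus-strand gene and 63 to the side of the plus-strand gene. The distance between the nearest opposing TSSs had a median of 260 bp and quartiles of 170 and 354.5 bp. From the summit to the nearer TSS the median was 92 bp, and to the farther TSS 186 bp. One-gene promoter summits had a median of 165 bp to their TSS, a single distance that is not comparable with the smaller of a pair, and the TSS lay downstream of the summit at 817 of 1154 (70.8%). Of the 357 summits between TSSs, 187 lay in the central part when the interval was split into 3 equal parts (52.4%, 47.1 to 57.7).

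**Figure D2:**
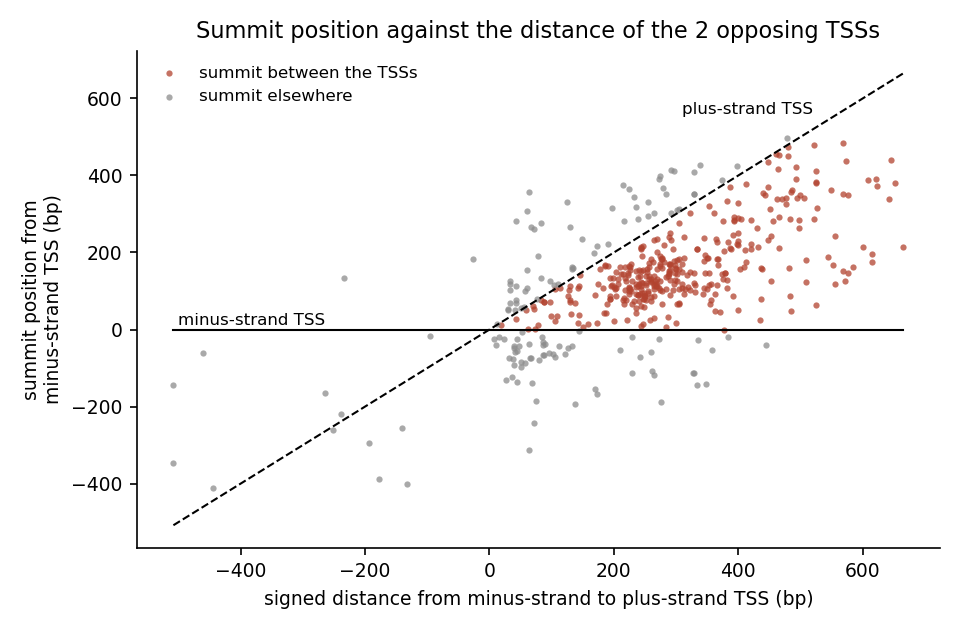
Each point is 1 of the 496 divergent promoter summits, by the signed distance in bp from the nearest minus-strand TSS to the nearest plus-strand TSS (x axis) and its own position in bp from the minus-strand TSS (y axis). The solid line is the minus-strand TSS and the dashed line the plus-strand TSS, and 357 points lie between the lines to the right of 0, most densely midway at distances of about 200 to 300 bp.

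The count of summits between the TSSs rises with their distance by construction, since a short interval is a small part of the stretch that the rule allows. At head-to-head distances of 0 to 50 bp, 2 of 32 summits lay between the TSSs, and the median summit was 66.8 bp from the midpoint. Over 50 and up to 100 bp, 11 of 42 lay between, and over 100 and up to 150 bp 16 of 32. Over 200 and up to 250 bp 70 of 80 lay between, with a median of 36.3 bp from the midpoint, and over 250 and up to 300 bp 76 of 91, with a median of 34.5 bp. For example, the summit at SerRS, a tRNA synthetase gene, and CG17260, whose TSSs are 8 bp apart, lay 24 bp inside the SerRS side, whereas that at E(z), which encodes the Polycomb group histone methyltransferase, and Cnep1r2 lay 113 bp from one TSS of a pair 267 bp apart.

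The share of gene pairs with a summit also varied with this distance, given here in classes that leave out their lower limit (other than 0) and include their upper one. It was 29.3% (53 of 181, 22.8 to 36.5) at 0 to 50 bp, 17.4% (26 of 149, 11.7 to 24.5) at 150 to 200 bp and 33.2% (79 of 238, 27.2 to 39.6) at 200 to 250 bp. From there it fell to 15.2% (39 of 257) at 400 to 500 bp and 1.87% (5 of 267) at 600 to 800 bp, with 0 of 191 pairs at 800 to 1000 bp. The rule itself narrows the stretch in which a summit can lie near both TSSs, from 969.1 bp per pair at 0 to 50 bp to 106 bp at 800 to 1000 bp. Per Mb of that stretch the summits were 244.3 (164.8 to 348.8) at 150 to 200 bp, 484.8 (389.3 to 596.6) at 200 to 250 bp, 258.4 (165.6 to 384.6) at 500 to 600 bp and 61.0 (19.8 to 142.5) at 600 to 800 bp. Over 200 to 300 bp, against 100 to 200 bp, the share of pairs was 29.9% (158 of 529) against 18.1% (64 of 354) in the main list, 30.4% against 15.3% in replicate 1 and 19.5% against 12.4% in replicate 2. The share was higher over 200 to 300 bp in either replicate, and in replicate 2 the intervals of 16.2 to 23.1 and 9.18 to 16.3 overlapped slightly. The median A and T content at the midpoint was 63.4% for pairs 150 to 200 bp apart and 74.3% for pairs 200 to 250 bp apart. It did not follow the share over all classes, being 55.4% for pairs 0 to 50 bp apart, of which 29.3% had a summit, and 72.3% for pairs 400 to 500 bp apart, of which 15.2% had one. Its part in the result was not tested.

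**Figure D3:**
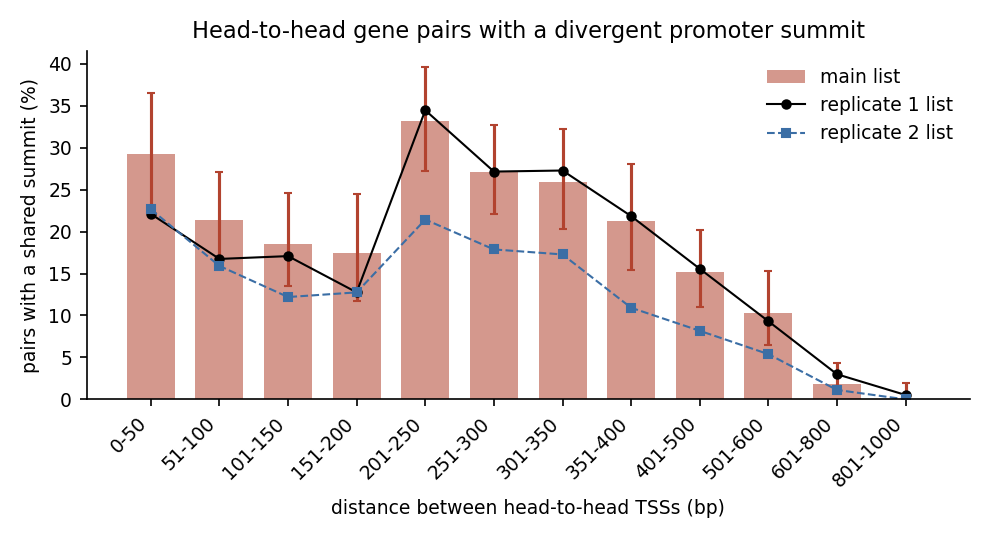
Share of head-to-head gene pairs with a shared summit (y axis, percent) by the distance between their TSSs (x axis, bp). Bars are the main list with 95% exact intervals and lines the lists of replicates 1 and 2, and the share is 33.2% in the main list at 200 to 250 bp, beside 34.5% in replicate 1 and 21.4% in replicate 2.

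Many pairs without a divergent promoter summit still had a candidate. Of 1678 head-to-head pairs with TSSs at most 600 bp apart and no such summit, 1129 (67.3%) had a candidate within 500 bp of both TSSs in the ranked list behind the main list. The highest candidate per pair had a median signal of 131.8 at the 480 pairs with a divergent promoter summit and of 35.0 at these 1129 pairs. This order follows from the split, since the pairs were divided by whether a peak had passed into the main list. The highest signal at a pair without such a summit was 794.7.

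A TSS of a non-coding gene also lay within 500 bp at 9 divergent promoter summits (1.81%, 0.833 to 3.42) and at 74 one-gene promoter summits (6.41%, 5.07 to 7.98). A few summits had another arrangement. At 14 summits the nearest TSSs were in overlapping order, with the plus-strand TSS to the left, and the strongest of these lay at DnaJ-H and Sirt1 (461.5), at CG31808 and Cyt-c-d (351.1) and at CG4741 and Adck1 (326.9). Sirt1 encodes a protein deacetylase and Cyt-c-d a cytochrome c. More than 2 protein-coding genes lay within 500 bp of 26 summits. The largest number, 10, was at the mod(mdg4) locus (3R, 21365229 to 21365618, signal 242.5), where the annotation gives separate gene entries on both strands to exons that are joined by trans-splicing. The 496 summits lay at 458 distinct nearest gene pairs, of which 38 had a second summit, as at qkr58E-3 and PolE4 (562.1 and 239.3) and at XNP and CG5116 (505.1 and 159.1).

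Near the limit of the rule, Rack1 and mts had a summit whose farther TSS was 496 bp away (signal 56.5), tank and CG12194 one at 489 bp (608.3) and CG31650 and CG33995 one at 486 bp (72.6). Just beyond it were summits at CG8155 and Arf6 with the farther TSS just past the limit (147.7), at Gfat2 and Moca-cyp at 505 bp (8.72) and at CG3735 and Taldo at 508 bp (89.7). There were 12 summits with the farther TSS over 450 bp away and 31 promoter summits with it at most 50 bp past the limit.

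The genes were grouped by 23 lists of symbols, each read against the 6.79% of all protein-coding genes with a divergent promoter summit and the 18.4% of all genes with an opposite-strand neighbour. Ribosomal protein genes were well represented. Of 93 cytoplasmic ribosomal protein genes 23 had such a summit (24.7%, 16.4 to 34.8), and these were 23 of the 56 with an opposite-strand neighbour (41.1%, 28.1 to 55.02). The strongest were at RpL34b and CG8132 (195.3), RpL32 and CG7943 (182.7) and CG17271 and RpS20 (168.4). In replicates 1 and 2 they had 149.6 and 48.7, 98.6 and 84.7, and 102.0 and 63.8, in that order, with replicate 1 the higher at all 3. Of 73 mitochondrial ribosomal protein genes 17 had one (23.3%, 14.2 to 34.6), or 29.3% (18.1 to 42.7) of the 58 with a neighbour. Their strongest summits, at mRpS10, mRpS23 and mRpL23, are among the 10 strongest of all, whereas no cytoplasmic ribosomal protein gene exceeded 195.3. As groups they were not strong, with median signals of 117.2 at the mitochondrial and 102.9 at the cytoplasmic ribosomal protein genes. The median over all divergent promoter summits was 122.3.

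Among genes of the transcription and chromatin machinery, TFIID and Mediator subunit genes had a summit at 11 of 47 (23.4%, 12.3 to 38.0), led by Taf5, shared with the peroxisome gene Pex6 (271.1), MED27 with elm (231.6) and MED30 with Rev1 (191.6). Taf10b and Taf10, which encode variant forms of a TFIID subunit, share one promoter and had a summit of 88.4 that neither replicate's own list held. It was the only summit with genes of 1 list on both sides. Insulator and architectural protein genes had a summit at 6 of 27 (22.2%, 8.62 to 42.3), namely Chro (913.1), Cp190 (350.2), pita (149.9), Dref (139.6), M1BP (109.3) and pzg (88.5). Dref encodes the DRE-binding factor and shares its promoter with RpL13. Polycomb and Trithorax group genes had one at 5 of 40 (12.5%, 4.19 to 26.8), with brm (538.2), E(z) (311.9) and phol (147.4) the strongest. RNA polymerase subunit genes had one at 3 of 30 (10%, 2.11 to 26.5), and the intervals of both these lists contained 6.79%. The strongest RNA polymerase summit was at Polr2B, shared with 140up (188.2). Splicing and snRNP genes had one at 7 of 43, led by U2af50, shared with PIG-Q (226.7).

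Among genes of other housekeeping functions, autophagy and peroxisome genes had a divergent promoter summit at 10 of 35 (28.6%, 14.6 to 46.3), with Pex11ab (675.6), Pex6 and Atg2 (255.5) the strongest. Aminoacyl-tRNA synthetase genes had one at 6 of 33 (18.2%, 6.98 to 35.5), led by GluProRS (216.0). DNA repair and checkpoint genes had one at 8 of 40 (20%, 9.05 to 35.6), led by the summit that mei-41, the fly ATR kinase gene, shares with TH1 (231.1). Membrane traffic genes had one at 18 of 139 (12.9%, 7.86 to 19.7), with Arl1 and alphaCOP (438.0) the strongest. Nuclear pore and transport genes had one at 6 of 34, nucleolus and ribosome assembly genes at 7 of 40, DNA replication genes at 5 of 41 and respiratory chain and ATP synthase genes at 9 of 92. Mitosis and cell cycle genes had one at 8 of 87, led by Kmn2 (418.7), heat shock proteins and chaperonins at 4 of 39, mitochondrial import and folding genes at 2 of 21, translation factors at 4 of 54 and proteasome subunits at 2 of 48 (4.17%, 0.509 to 14.3). The interval lay above 6.79% for 10 of the 23 lists, and above 18.4% of the genes with a neighbour for 2, the cytoplasmic ribosomal proteins and the autophagy and peroxisome genes.

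Genes of 3 lists whose use is restricted to certain cells or stages had none. The counts were 0 of 43 Hox, gap and pair-rule genes, 0 cuticle protein genes and 0 of 232 chemosensory receptor and odorant-binding protein genes. A limit of 3 counts allows shares of up to 6.98%, 2.44% and 1.29% in that order, and the upper ends of the exact intervals are 8.22%, 2.95% and 1.58%. Few of these genes could have met the rule, since 1 of the first list, 14 of the second and 40 of the third had an opposite-strand neighbour TSS within 1000 bp. Among the Hox, gap and pair-rule genes 9 had a promoter summit of any kind.

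Divergent promoter summits lay in A and T rich sequence. Within 50 bp to either side, A and T made up 67.2% ± 10.9 (SD over 496 windows) at divergent promoter summits, against 61.6% ± 11.8 at 1154 one-gene promoter summits and 64.1% ± 10.9 at summits elsewhere. Windows 500 bp away held 50.3% ± 9.11 around divergent promoter summits and 58.3% ± 11.0 around one-gene promoter summits, beside 57.8% over the whole 6 arms. With head-to-head TSSs both of these windows are centred on the transcribed side of a TSS, and at one-gene promoters only 1 is. The flanks of these classes are therefore unlike, and so are the differences from them. The summit exceeded its flanks by 16.8 percentage points at divergent promoters and by 3.31 at one-gene promoters. Midpoints of head-to-head pairs without a summit were 66.5% ± 10.3 A and T, against 67.9% ± 11.6 at midpoints of pairs with one, so the interval was A and T rich in both.

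The words of 6 letters that differed most between summits and flanks, all of the top 20, were made of A and T alone. The leading word, AAAATA, was found on either strand in 44.4% of divergent promoter summit windows, 38.3% of midpoints without a summit, 10.2% of flanks and 26.3% of windows of the same length just upstream of all protein-coding genes. The homeodomain-type word TAATTA was found in 14.1% (11.2 to 17.5) of divergent promoter summit windows, 11.0% (9.51 to 12.6) of midpoints without a summit, 3.12% of flanks, 6.76% of one-gene promoter summits and 5.62% of all promoters. This pattern was not particular to TAATTA among words of A and T alone. AATATT was in 19.2% of divergent promoter summit windows, 18.1% of midpoints without a summit and 3.93% of flanks. It was in 12.5% of one-gene promoter summits and 9.18% of all promoters. For TTATAA the shares were 12.9%, 11.7%, 3.02%, 8.06% and 5.93% in the same order. The GAGA word GAGAG was found in 5.85% (3.95 to 8.29) of divergent promoter summit windows, against 7.75% (6.51 to 9.13) of midpoints without a summit, 13.5% (11.6 to 15.6) of one-gene promoter summits and 13.3% of all promoters. The low share of GAGAG was thus shared by head-to-head intervals without a summit. A match is only the presence of these letters on either strand.

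The DRE word TATCGATA was found in 26 of 496 divergent promoter summit windows (5.24%, 3.45 to 7.59), against 1.91% (1.20 to 2.87) of one-gene promoter summits, 0.302% of flanks, 5.96% (4.87 to 7.20) of midpoints without a summit and 6.30% of all promoters. At divergent promoter summits of the list of replicate 1 alone the share was 3.28% (1.85 to 5.36), and of replicate 2 alone 4.39% (2.48 to 7.13). The shorter CGATA, which the DRE word contains, was found in 20.8% (17.3 to 24.6) of divergent promoter summit windows, 14.2% of one-gene promoter summits, 26.9% of midpoints without a summit and 28.4% of all promoters. The share of the DRE word under these summits was not above its share in all promoters, whose interval was 5.91 to 6.72%. The windows of all promoters are centred 50 bp upstream of a TSS, and those of the summits on the summit. The shares therefore cannot say whether divergent promoters hold the word more or less often than other promoters. Counted around the TSSs of the 496 summits, where a gene pair with 2 summits enters once for each, the DRE word was densest just upstream of the TSSs. Its density was 1.98 matches per kb (1.46 to 2.61) in the 50 bp upstream of the plus-strand TSS and 1.85 (1.36 to 2.47) in the 50 bp upstream of the minus-strand TSS, against 0.202 and 0.0806 at 100 to 150 bp upstream. TAATTA had the reverse placement, with 0.484 and 0.524 matches per kb in the first 50 bp upstream of the plus-strand and minus-strand TSS and 1.98 and 2.42 at 100 to 150 bp upstream. No other word of A and T alone was counted around the TSSs, so this placement cannot be called particular to TAATTA. Around the summits TAATTA had 1.75 matches per kb (1.40 to 2.16) within 50 bp and 0.786 (0.559 to 1.07) at 100 to 150 bp, whereas the DRE word had 0.585 and 0.625.

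The word and the summit are shown for the 3 strongest summits among the 27 of the 138 exon-free stretches that hold the DRE word. The strand, build and ends are as above, and capitals mark the DRE word.
fws/Lamtor3 (chr2L:17481030-17481230): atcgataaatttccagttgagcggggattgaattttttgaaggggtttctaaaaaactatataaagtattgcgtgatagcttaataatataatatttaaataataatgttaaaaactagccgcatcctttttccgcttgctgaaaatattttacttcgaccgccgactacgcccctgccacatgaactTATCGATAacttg
XNP/CG5116 (chr3R:25482835-25483097): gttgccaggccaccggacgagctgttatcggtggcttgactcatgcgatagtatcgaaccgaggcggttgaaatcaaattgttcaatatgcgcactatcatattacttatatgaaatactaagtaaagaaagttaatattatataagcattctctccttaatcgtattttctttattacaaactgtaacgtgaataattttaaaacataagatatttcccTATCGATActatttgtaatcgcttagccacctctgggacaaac
Atat/Shc (chr3L:9426759-9427009): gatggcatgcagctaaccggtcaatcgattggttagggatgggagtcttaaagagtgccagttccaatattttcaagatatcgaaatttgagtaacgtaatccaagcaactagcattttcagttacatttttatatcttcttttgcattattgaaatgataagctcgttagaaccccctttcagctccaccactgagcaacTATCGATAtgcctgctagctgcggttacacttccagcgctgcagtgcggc

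The word starts at base 189 between fws and Lamtor3, at base 221 between XNP and CG5116 and at base 202 between Atat and Shc. The summits fell on bases 104, 31 and 120 of the same stretches, at signals of 517.1, 505.1 and 434.1. The signals in replicates 1 and 2 were 288.1 and 226.6 at fws, 255.5 and 247.7 at XNP, and 264.2 and 163.6 at Atat. The word was nearer than these summits to the plus-strand TSS. The second, weaker summit of XNP and CG5116 (159.1) was placed otherwise, on base 232, just past the word.

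**Figure D4:**
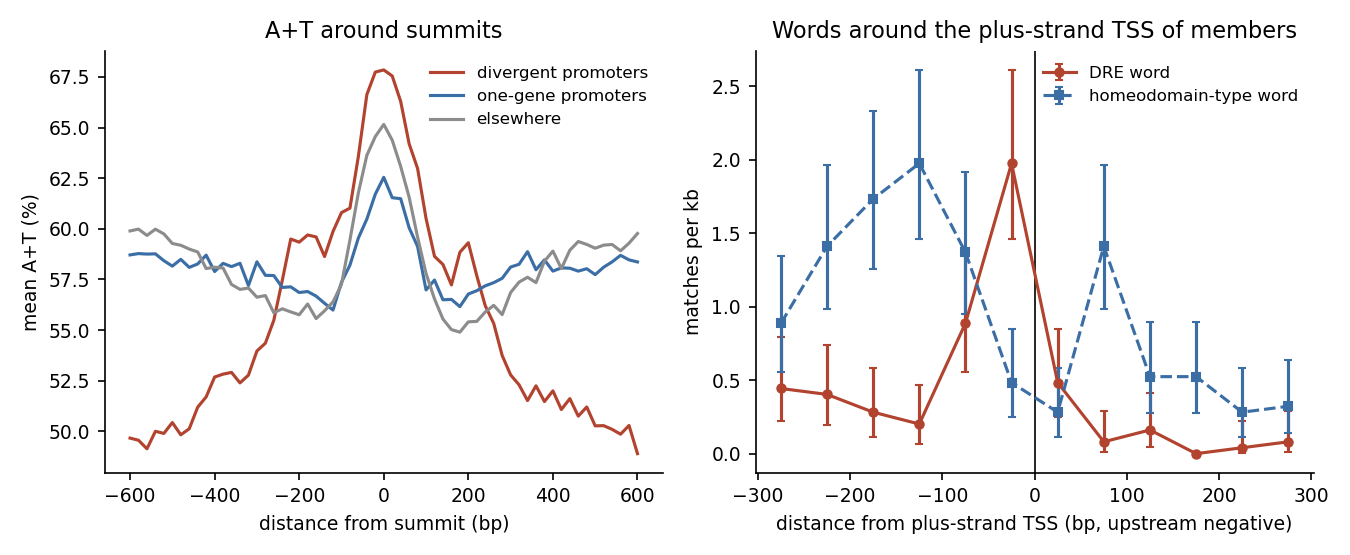
Left, mean A and T content (y axis, percent, in 21-bp windows) by distance in bp from divergent promoter, one-gene promoter and other summits. Right, matches per kb (y axis, with 95% exact Poisson intervals) of the DRE word and the homeodomain-type word by distance in bp from the plus-strand TSS of the 496 members, with the DRE word highest in the 50 bp upstream (1.98) and the other at 100 to 150 bp upstream (1.98).

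Signals at divergent promoters were higher than at one-gene promoters in the main list, and in replicate 2 the order of the medians changed with the set of summits compared. The median was 122.3 (quartiles 82.9 and 194.1) at divergent promoter summits and 105.8 (79.7 and 165.5) at one-gene promoter summits, and 297 of 496 divergent promoter summits exceeded the one-gene median (59.9%, 55.4 to 64.2). With the signals of replicate 1 the medians were 74.8 and 56.6, and 336 of 494 exceeded the one-gene median (68.0%, 63.7 to 72.1). With those of replicate 2 the medians were 51.2 and 56.1, and 214 of 492 did (43.5%, 39.1 to 48.0). At the summits of the main list the order of the medians was therefore opposite in the replicates. At the summits of each replicate's own list it was not, with medians of 78.3 at divergent and 68.1 at one-gene promoters in replicate 1, and of 63.8 and 61.98 in replicate 2. In the own list of replicate 2, 51.75% (46.3 to 57.2) of divergent promoter summits exceeded the one-gene median.

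The replicates also differed in which divergent promoters they called. Of the 496 summits, 385 overlapped a peak in the list of replicate 1 (77.6%), 289 one in that of replicate 2 (58.3%) and 255 both (51.4%, 46.9 to 55.9). Of one-gene promoter summits 66.0% overlapped a peak of replicate 1, 66.0% one of replicate 2 and 49.1% (46.2 to 52.1) both, and over all 3531 summits the share in both lists was 45.8%. Only replicate 1 held 130 of the divergent promoter summits (26.2%) and only replicate 2 held 34 (6.85%), while 77 were in neither list (15.5%). In the same order, the shares were 21.5%, 13.2% and 19.6% over all 3531 summits. At one-gene promoter summits they were 16.9%, 16.9% and 17.1%, and at summits elsewhere 23.0%, 12.5% and 22.3%. The share in both lists followed the signal, with 12 of 124 in the weakest quartile, 34 and 87 of 124 in the next ones and 122 of 124 in the strongest. Across the 490 divergent promoter summits with a candidate in both ranked lists, the signals had a Spearman correlation of 0.71, against 0.57 across 1137 one-gene promoter summits. Both summits of a pair with 2 can rest on the same candidate, so these points are not fully separate.

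The difference between the replicates moved with base composition. Replicate 1 had the higher signal at 372 of the 490 summits, against 640 of 1137 one-gene promoter summits and 1174 of 1833 summits elsewhere. Where A and T made up at most 55% of the window, it was higher at 38 of 83 (45.8%, 34.8 to 57.1) and the median log2 ratio of replicate 1 over replicate 2 was -0.04. The median was 0.20 between 55 and 65% A and T, 0.54 between 65 and 75%, and 0.72 above 75%, where replicate 1 was higher at 124 of 133 (93.2%, 87.5 to 96.9). The same gradient ran through one-gene promoter summits, with medians of -0.27, -0.01, 0.41 and 0.47 in the same classes of A and T. The widest differences were as follows. At piwi, the Piwi-clade Argonaute gene of the germ line, and CG12253 the signals were 127.9 in replicate 1 and 32.5 in replicate 2, with 84.2% A and T. At FucTB and scat they were 135.7 and 38.3, with 85.1%, and at RnrS, a ribonucleotide reductase gene, and CG34231 they were 152.4 and 42.4, with 69.3%. In the other direction, the candidate that both summits at DnaJ-H and Sirt1 overlap had 109.7 in replicate 1 and 359.8 in replicate 2, and the summit windows were 64.4 and 43.6% A and T.

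**Figure D5:**
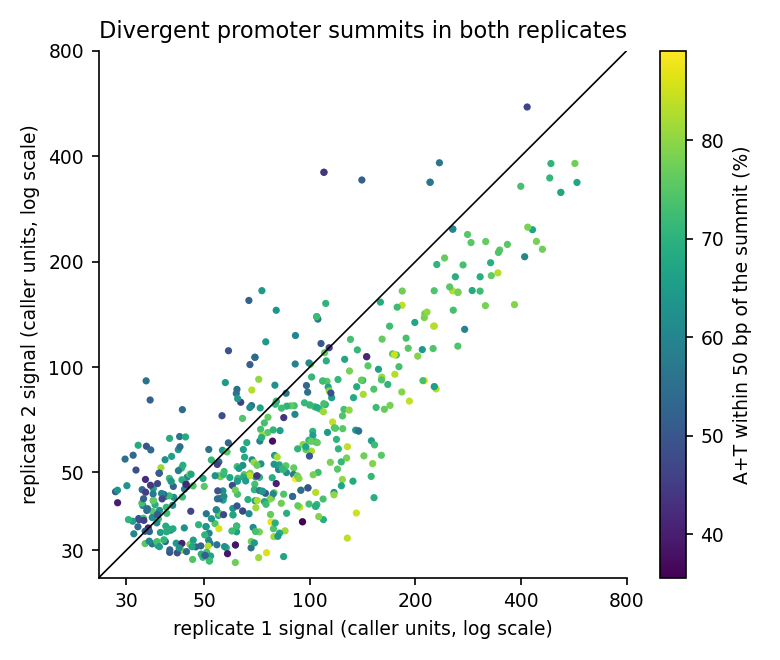
Signal in replicate 2 (y axis) against replicate 1 (x axis), both in the caller's units on log scales, for the 490 divergent promoter summits with a candidate in both ranked lists. Colour gives A and T content within 50 bp of the summit in percent and the line marks equal signals, with 372 points below it, among them 124 of the 133 above 75% A and T.

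Base composition also moved with signal. From the weakest to the strongest quartile of main-list signal, the median A and T content was 60.9%, 68.3%, 71.3% and 73.3%, and the DRE word was in 8, 11, 6 and 1 of 124 windows. The Spearman correlation of A and T content with signal across the 490 summits was 0.43 in replicate 1 and 0.16 in replicate 2. For head-to-head pairs with TSSs at most 600 bp apart, the share with a summit did not follow A and T content at the midpoint in 1 direction. It was 23.8% (19.5 to 28.5) where A and T made up at most 55%, 14.5% (11.5 to 18.1) between 55 and 65%, 21.9% (19.05 to 25.01) between 65 and 75%, and 28.2% (24.5 to 32.2) above 75%. In replicate 2 the shares in the same classes were 15.6%, 11.3%, 15.0% and 16.1%. The part of base composition in the differences between divergent and one-gene promoters was not tested. The density ratio, 4.10 in replicate 1 and 2.76 in replicate 2, was above 1 in the list of either.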

How the data were processed

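Anti-GFP ChIP-seq peak lists of 2 biological replicates were used. Per the labels the assembly was dm6. No source used here names an aligner, a peak caller or how a control was handled. The deposited lists give each peak's signal in the caller's units and a score, a scaled irreproducible discovery rate (IDR), both used as the authors gave them. Per the deposited README texts the main, conservative list derives from both replicates, and a longer such list, each replicate's thresholded list and the ranked lists were also used, 7 in all. Depth is unknown.

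The Ensembl annotation (release 115, BDGP6.54, without transposable elements) gave the genes and TSSs, and RefSeq's dm6 assembly the sequence. Coordinates were identical for 17669 of the 17671 genes whose symbol both annotations share. Distances run from summit to TSS, and positions are 1-based. Shares have 95% exact Clopper-Pearson intervals and densities exact Poisson intervals. The density ratio has an exact conditional interval. Words were searched on both strands within 50 bp of summits, in windows centred 500 bp away, at midpoints, and, for all protein-coding genes, in windows centred 50 bp upstream of each gene's 5′-most TSS. Classification was tested on midpoints of annotated pairs and on random positions of the arms, and word search on simulated sequence. Python 3.11.15 with pandas 2.3.3, numpy 2.4.6, scipy 1.17.1 and matplotlib 3.10.9 was used.

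Named genes are those at the 20 strongest members, up to 3 members per gene list, 3 members inside and 3 promoter summits outside the limit, and the 5 members whose replicate signals differ most. The others (Taf10b, Dref, M1BP, pzg, overlapping and multi-gene loci, and the genes beside the DRE sequences) were picked once their values were known. The members, lists and words were chosen with earlier results of these data known.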

Additional observations from a re-analysis of the deposited data

How the results depend on the processing

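Of 68 values computed under alternatives, 34 stayed inside the range set around the main value (its interval, except for the number of summits) and 34 left it, and the density ratio stayed above 1 throughout. The main values are those of the report. The number of divergent promoter summits was 332 (9.40% of all arm summits) with a limit of 250 bp and 712 (20.2%) with 1000 bp. Both counts are among the values inside the range, although these shares lie outside the main interval of 12.9 to 15.2%. With a limit of 250 bp to a TSS the share of genes with an opposite-strand neighbour that had a promoter summit was 21.94%, the density ratio 5.023, the share of divergent promoter summits above the one-gene median signal 71.99%, the share in both replicate lists 57.53%, the share between TSSs 78.01% and the median distance between TSSs 238 bp. With 1000 bp the density ratio was 2.676, the share above the median 54.21%, the share between TSSs 65.45% and the median distance 304 bp. The longer list gave 28.52% of genes and 43.75% in both lists. The upper 50% of peaks by signal gave 303 summits, 14.9% of genes, a ratio of 4.135 and 74.92% in both lists. The highest score alone gave 18.32% of genes and 65.71% in both lists. The gene 5′ end as only TSS gave 20.88% of genes, 64.3% between TSSs and 246 bp. Requiring 50% of the peak to be covered gave 46.37% in both lists. The DRE word was in 10.48% of windows of 100 bp to either side. The shorter CGATA was in 20.77% of the main windows of 50 bp to either side.

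With either replicate's list alone the share of genes ran from 16.61 to 21.05%, the density ratio from 2.756 to 4.102, the share above the one-gene median signal from 51.75 to 60.39%, the share between TSSs from 65.5 to 76.37% and the DRE share from 3.282 to 4.386%. The share that overlapped a peak of the other replicate ran from 57.55 to 78.65%. A smaller list holds fewer genes by construction, and the cause of the other changes was not tested. No paired analysis was possible because there is 1 group and no test between groups. The lists carry no read counts, so the depth that limits each replicate is unknown.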
